A study of Homo sapiens with 6 samples.

Results

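The nuclear respiratory chain subunit genes encode the proteins that the cell nucleus supplies to complexes I to V of the inner mitochondrial membrane. They were taken from the expression table as every protein-coding gene in GENCODE 29 whose symbol begins with NDUFA, NDUFB, NDUFC, NDUFS or NDUFV and a digit, is SDHA to SDHD or CYC1, or begins with UQCR, COX4 to COX8 or ATP5. This rule used no expression value. It found 87 of the 32364 genes in the table, of which 38 belong to complex I by symbol, 4 to complex II, 10 to complex III, 15 to complex IV and 20 to complex V. Of the 87 members, 83 reached a mean of 0.1 FPKM and were tested. FPKM is the number of sequenced fragments on a gene, scaled to the exon length of the gene and to the fragments in the library. NDUFA4 and NDUFA4L2 were counted with complex I by their symbols, although later work placed NDUFA4 in complex IV. Not every symbol found by the rule names an established subunit, as with ATP5IF1, ATP5S and the read-through gene ATP5MF-PTCD1. COX4I2 and COX6A2 were not among the 87 genes that the rule found and were not analysed here.

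Complexes I and II pass electrons from NADH and succinate to ubiquinone, complex III passes them on to cytochrome c, and complex IV hands them to oxygen. The proton gradient that complexes I, III and IV build drives complex V, the ATP synthase. Most subunits are encoded in the nucleus, while mitochondrial DNA encodes a small hydrophobic set, so each complex other than complex II is built from proteins of both genomes. Transcription of the nuclear subunit genes is known to depend on NRF1, GABPA, a factor of the ETS family, and YY1. Myeloid leukemia cells are known for a strong reliance on oxidative phosphorylation.

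Kasumi-1 is a human acute myeloid leukemia cell line with the t(8;21) translocation, which fuses RUNX1 to RUNX1T1. I13 is an inhibitor of histone deacetylases, the enzymes that remove acetyl groups from histones and other proteins. The groups were 3 libraries of Kasumi-1 cells kept with control for 48 h and 3 libraries of Kasumi-1 cells given I13 at 0.5 µM over the same 48 h. The methods of the study name DMSO, the solvent of I13, as its control. All 6 libraries come from 1 cell line, and p-values measure the spread between these libraries. The study describes its sequencing as representative of independent experiments, while the labels do not tie the replicate numbers to separate cultures.

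The depth behind the FPKM values was between 15281052 and 17221346 fragments per library. The myeloid genes MPO, KIT, CD34, CD33, RUNX1 and RUNX1T1 were present in every library, and CD3E, CD3D, HBA1 and COL1A1 were at 0.38 FPKM or lower. EPCAM, an epithelial gene, was between 20.8 and 26.5 FPKM. On the first principal component, taken over 4133 genes that averaged 10 FPKM or more, which held 43.3% of the variance, control replicate 3 and I13 replicate 2 lay on one side and the other 4 libraries on the other. The groups parted on the second component, which held 20.5%.

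The start regions of the members were searched for the letters to which their known regulators bind. RefSeq start regions, 250 bases before and 50 bases after a start on GRCh38, were matched for 69 members. The NRF1 motif GCGCATGCG was found on either strand in 11 of them (15.9%), against 3.11% of 15843 protein-coding genes. The ETS motif CCGGAAG, which GABPA binds, was found in 21 members (30.4%), against 16.5% of these genes. The YY1 motif AAGATGGCG was found in 9 members (13%), against 3.21%, and in 8 of the 9 a match lay after the start. Any of these 3 motifs was present in 34 members (49.3%), against 21.1% of the protein-coding genes. The general promoter motifs were not more frequent in the members, since CCAAT was found in 36.2% against 42.1% and TATAAA in 8.70% against 12.4%. A match is a description of the letters and not a binding site. The parts of 3 of these regions that lie outside exons are shown, NDUFB4 for the NRF1 motif, NDUFB7 for the ETS motif, and COX7C because it is among the members with the smallest p and holds none of the 5 motifs. Capitals mark a motif on either strand. In NDUFB4 a match to GCGCATGCG and an overlapping match on the other strand began 159 and 158 bases before the start, and in NDUFB7 the ETS motif began 24 bases before it. The windows are NDUFB4 at chr3:120596086-120596308 on the plus strand, NDUFB7 at chr19:14572067-14572316 on the minus strand and COX7C at chr5:86617691-86617903 on the plus strand.
NDUFB4: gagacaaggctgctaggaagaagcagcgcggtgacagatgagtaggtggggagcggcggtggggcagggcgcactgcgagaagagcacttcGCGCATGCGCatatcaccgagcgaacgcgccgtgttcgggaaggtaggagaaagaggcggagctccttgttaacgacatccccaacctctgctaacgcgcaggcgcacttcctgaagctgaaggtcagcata
NDUFB7: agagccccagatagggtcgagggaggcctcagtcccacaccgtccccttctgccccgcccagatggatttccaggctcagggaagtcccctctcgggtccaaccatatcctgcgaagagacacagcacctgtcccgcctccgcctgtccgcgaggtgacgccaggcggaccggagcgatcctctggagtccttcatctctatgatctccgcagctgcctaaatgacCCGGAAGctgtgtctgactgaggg
COX7C: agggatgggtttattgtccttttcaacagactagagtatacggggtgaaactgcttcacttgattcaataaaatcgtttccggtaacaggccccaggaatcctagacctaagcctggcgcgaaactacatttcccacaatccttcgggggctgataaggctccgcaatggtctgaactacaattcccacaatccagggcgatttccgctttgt

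The members covered a wide range of levels in Kasumi-1 cells. A mean of 100 FPKM or more was reached by 6 members, 48 were between 10 and 100 FPKM, 19 were between 1 and 10 FPKM, and 14 were under 1 FPKM. The highest was ATP5F1B, the catalytic beta subunit of the ATP synthase, with 457 ± 9.17 FPKM in control (SD, n = 3). It was followed by NDUFS5, an accessory subunit of complex I, with a mean of 242 FPKM over the 6 libraries, by CYC1, the cytochrome c1 of complex III, with 166 FPKM, and by UQCRH, which stands beside cytochrome c1, with 161 FPKM. ATP5F1C, the gamma subunit that turns inside the ATP synthase, was at 121 FPKM, and COX6B1, a subunit on the outer side of complex IV, at 112 FPKM. Within complex II, SDHB, the iron-sulfur subunit, was highest at 36.7 FPKM and SDHC, a membrane anchor, lowest at 6.49 FPKM. The exon length of SDHC, 14160 bases, was the longest of the members. SDHC had 1404 to 1573 fragments per library, and SDHB had 1415 to 1570 over 2462 bases.

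**Figure D1:**
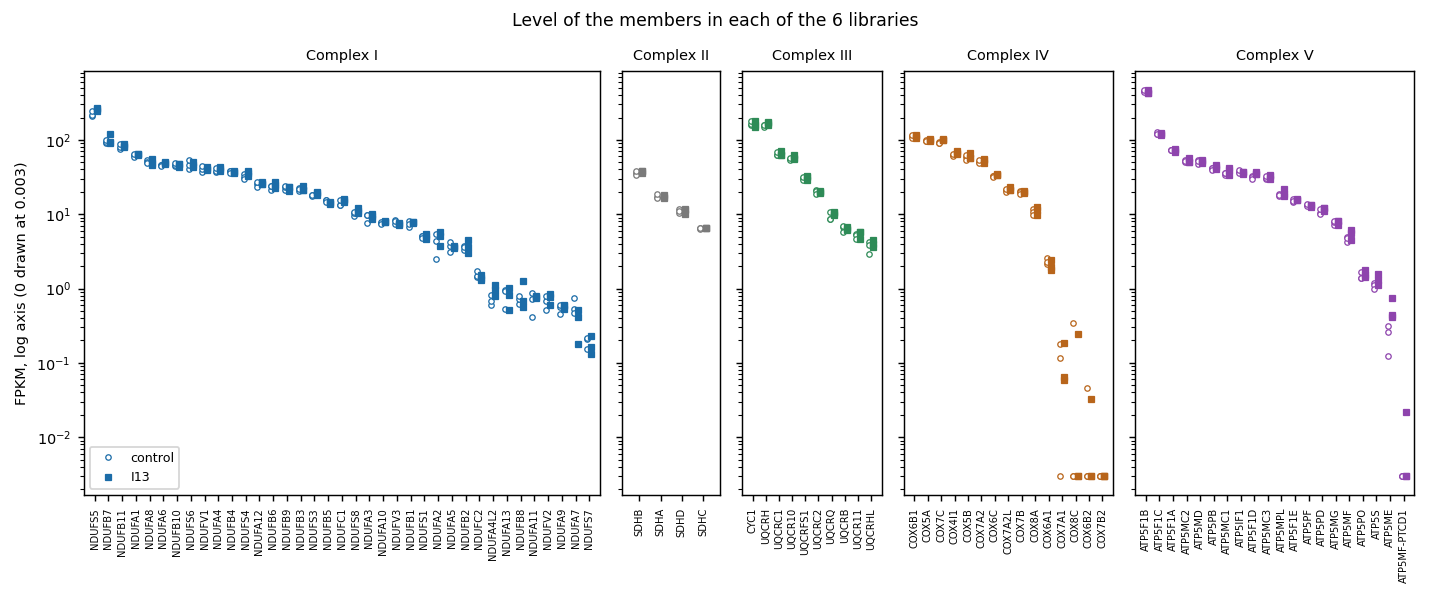
FPKM on a log axis of each member shown in the 3 control libraries (open circles) and the 3 I13 libraries (filled squares), by complex and in order of mean level, with values of 0 drawn at 0.003. The libraries of both groups overlie each other for nearly all members, from 449 FPKM for ATP5F1B on average down to COX7B2 at 0.

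Several subunits that every cell needs for an active complex I had low values in the table. NDUFS7, which carries the last iron-sulfur cluster before ubiquinone, had 0.192 ± 0.035 FPKM in control and 0.176 ± 0.050 FPKM in I13 cells (SD, n = 3 each), from 16 to 29 fragments per library. NDUFV2, which carries an iron-sulfur cluster beside the NADH site, had 0.668 ± 0.144 and 0.734 ± 0.123 FPKM (SD, n = 3 each). NDUFA9, an accessory subunit near the ubiquinone site, was at 0.556 FPKM on average, NDUFA7 at 0.475 FPKM, NDUFA11 at 0.725 FPKM, NDUFB8 at 0.771 FPKM and NDUFA13 at 0.793 FPKM. Other core subunits of complex I were far higher, with NDUFV1, which holds the NADH site, at 41.2 FPKM, NDUFS3 at 18.5 FPKM, NDUFS8 at 10.7 FPKM and NDUFS1 at 5.003 FPKM. In complex V, ATP5PO, which joins the stalk of the enzyme to its head, was at 1.52 FPKM and ATP5ME, a small membrane subunit, at 0.381 FPKM.

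The low members often shared exons with other annotated genes. In 15 members at least 15% of the bases of the principal transcript lay in exons of another gene on the same strand, and their median level was 1.48 FPKM, with 10 of the 15 under 5 FPKM. In 11 members such overlap lay only on the opposite strand, and their median was 9.16 FPKM. In the other 61 members the median was 33.2 FPKM, and 7 of them were under 5 FPKM. The limit of 15% was set with the levels in view. The share was 82.9% in NDUFV2, 75.9% in NDUFA7, 71.7% in NDUFB8, 70.3% in ATP5PO, 67.0% in NDUFA11 and 44.1% in NDUFA13. NDUFS7 and ATP5ME had no overlap on the same strand and 37.9% and 49.9% on the opposite strand. NDUFA5, with 3.64 FPKM and no overlap, and NDUFA9, with 11.8% on the same strand, were low as well, and NDUFB11, with 82.3 FPKM and 45.8% opposite to RBM10, was high with overlap on the opposite strand. How fragments on shared exons were counted is not given in the sources used here, so the part of overlap in these levels was not tested, and a low value of these members cannot be read as a low transcript level.

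**Figure D2:**
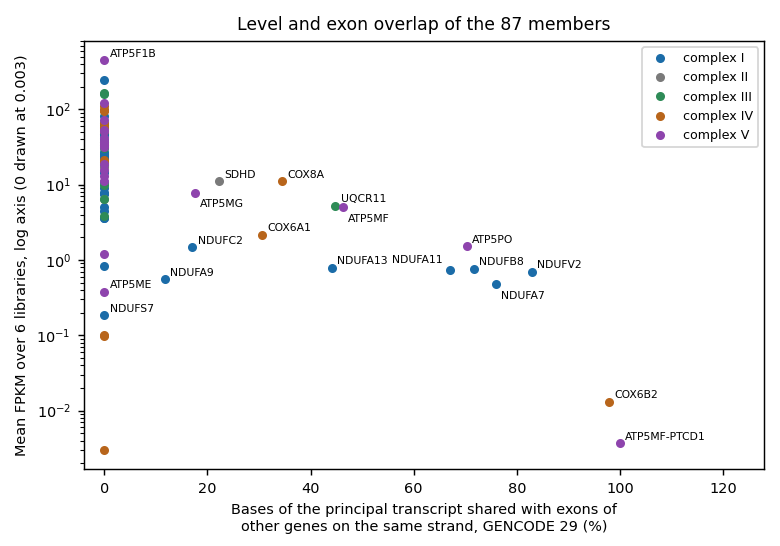
Mean FPKM of each member over the 6 libraries on a log axis against the percentage of its principal transcript that lies in exons of other genes on the same strand in GENCODE 29, coloured by complex, with 0 FPKM drawn at 0.003. The 15 members at 15% or more reach at most 11.05 FPKM and have a median of 1.48 FPKM, while the highest members, ATP5F1B among them, lie at the left edge.

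The exon length behind the FPKM values also bears on comparisons between genes. The counted length, which is the union of all annotated exons in all members but NDUFV1 and ATP5MD and was taken as such for NDUFB9, was between 507 and 14160 bases and had a median ratio of 2.38 to the length of the shortest principal transcript. The ratio was over 2 in 53 members and reached 8.98 in NDUFA11. Divided by the principal transcript instead, ATP5F1B stayed highest at 567 FPKM, but COX4I1 came next with 440 FPKM, up from 65.0, and ATP5F1A followed with 409 FPKM. NDUFS5 had 244 FPKM on the principal transcript and 242 FPKM on the counted length. A ratio of FPKM between groups within a gene is the same on both lengths, while the log2 fold change of FPKM + 0.1 and the minimum of 0.1 FPKM are not for low genes.

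Many subunits of complex IV and some of the other complexes have a ubiquitous copy and a copy limited to certain tissues. In Kasumi-1 cells the ubiquitous copy was higher in every pair with values for both. COX7A2 was at 52.0 FPKM and COX7A1, the heart and muscle form, at 0.101 FPKM, from 0 to 3 fragments per library. COX6B1 was at 112 FPKM against 0.0131 FPKM for the testis form COX6B2, which shares 97.9% of its principal transcript with AC020922.1. COX7B was at 19.9 FPKM, and COX7B2 had no fragment in any library, where 3 fragments would be the limit in each. COX8A was at 11.05 FPKM, and COX8C, which had 3 fragments in control replicate 3, 2 in I13 replicate 3 and none elsewhere, was at 0.098 FPKM. NDUFA4 was at 39.9 FPKM and NDUFA4L2, known as a hypoxia-induced copy, at 0.828 FPKM. UQCRH was at 161 FPKM and UQCRHL, a near copy of it, at 3.83 FPKM, and reads can be split between such copies. The 3 genes for the rotating c ring of the ATP synthase were of like order, with ATP5MC2 at 52.5 FPKM, ATP5MC1 at 36.6 FPKM and ATP5MC3 at 31.7 FPKM. COX7A1 lay just inside the limit of the test and COX8C just outside, and the other members not tested were COX6B2, COX7B2 and the read-through gene ATP5MF-PTCD1, with 0.00366 FPKM. GENCODE 29 lists 17 pseudogenes named after COX6C and 12 each after NDUFA5 and NDUFB4, so their values carry an uncertainty from reads shared with such copies.

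The comparison of I13 with control cells asked whether the inhibitor changed the expression of these genes in Kasumi-1 cells. No member passed an adjusted p of 0.05 in limma, in which 0% of the 18726 genes tested were called, and the smallest adjusted p of a member was 0.875. At an unadjusted p under 0.05, 5 members were higher in I13 cells, namely ATP5F1D, COX7C, ATP5ME, NDUFA6 and NDUFS5, which is 6.02% of 83 against a background of 2.55% of all genes tested. None was lower, against a background of 2.59%. Libraries of the groups did not overlap in 6 members with every I13 library higher, which is 7.23% against a background of 4.88%, and in 0 members with every I13 library lower, against 4.64%. In bulk RNA, a change in the share of a cell type and a change in the RNA per cell cannot be told apart.

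Limma's voom on the fragments recovered from the FPKM values gave fewer. It tested 80 members and called none at an adjusted p, while the background was 0.0439% of 13680 genes, or 6 genes. At an unadjusted p, 2 of the 80, ATP5F1D and NDUFS5, were higher, a share close to the background of 2.54%, and no member was lower, against 2.84%. ATP5ME, among the 5 members higher above, averaged under 10 fragments and was not tested in voom. A fit with a term that set control replicate 3 and I13 replicate 2 apart had 11 members higher at an unadjusted p, against a background of 3.7%, and none at an adjusted p, with a smallest value of 0.502. The 11 were NDUFA6, NDUFC1, NDUFS4, NDUFS5, UQCR10, UQCRH, COX4I1, COX7C, ATP5F1D, ATP5ME and ATP5PD. No label sets control replicate 3 and I13 replicate 2 apart. The term follows their place on the first principal component of these same data, so the count of 11 is not independent evidence of a change. The count of 5 fell to 3 without control replicate 1 and to 2 without control replicate 2, and a fit with no variance trend left 1. The background shares under these fits are not given here.

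**Figure D3:**
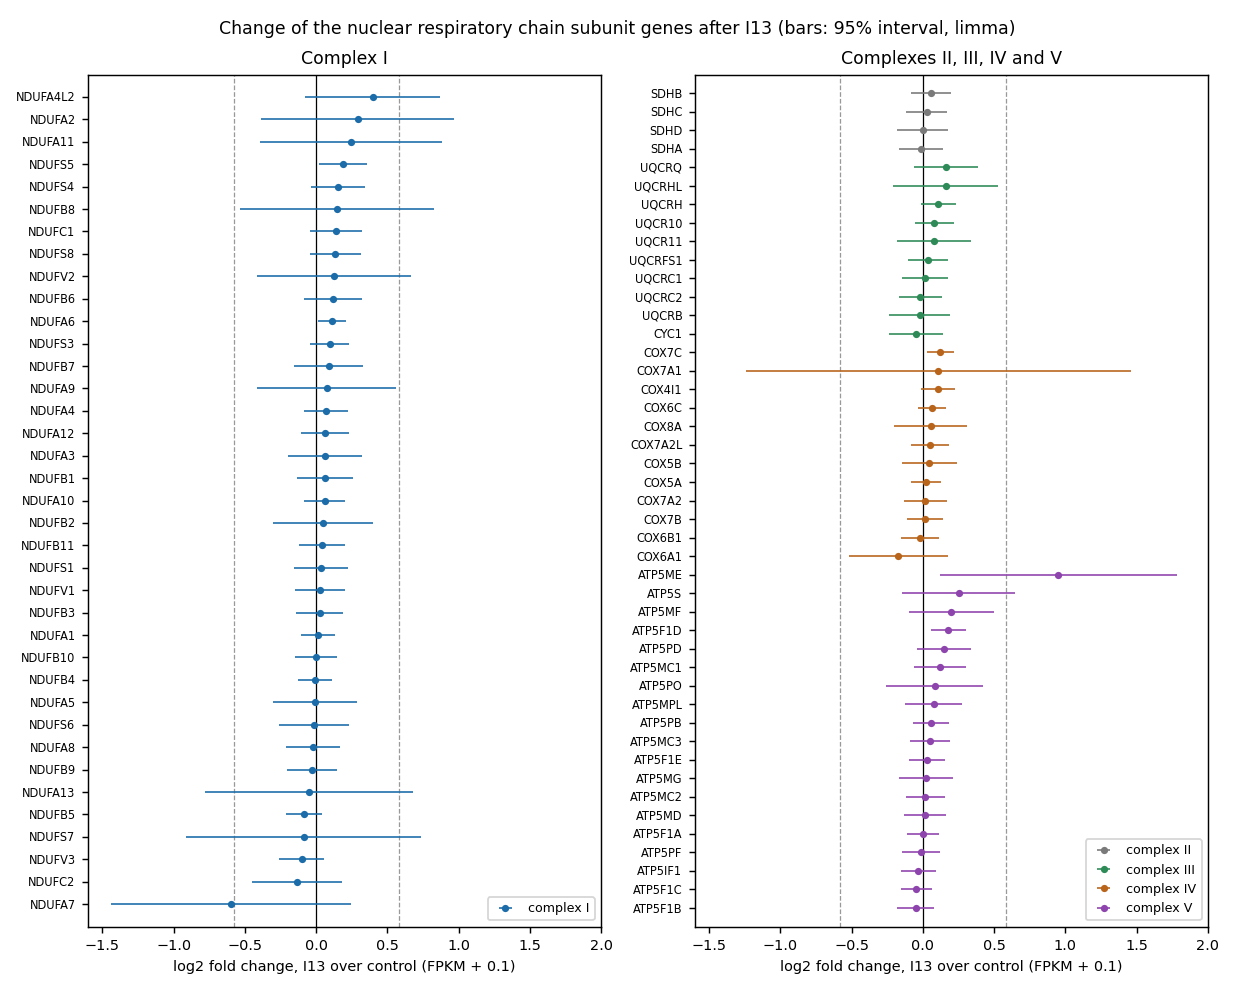
Log2 fold change of I13 over control in FPKM + 0.1 for the tested members shown, complex I on the left and complexes II to V on the right, with 95% intervals from limma and dashed lines at a log2 fold change of 0.58 in either direction. Points lie close to 0 for nearly all members, and only ATP5ME at 0.95 and NDUFA7 at -0.60 lie beyond the dashed lines, both with wide intervals.

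The intervals were narrow for members with many fragments. Among the 54 members with a mean of at least 10 FPKM, log2 fold changes were between -0.083 and 0.19, or from 0.944-fold to 1.14-fold, and the 95% interval was on median 0.15 wide on either side. The intervals lay within 1.25-fold of no change in 50 of the 54, and NDUFB7, NDUFS4, NDUFS5 and ATP5PD were the exceptions. Over all tested members, 72 of 83 intervals lay within a log2 fold change of 0.58 in either direction. The 11 that did not were of members at 4.47 FPKM or less, among them NDUFS7 and NDUFV2, for which a change of that size was not excluded at this depth.

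The direction of the small differences was mostly upwards. The log2 fold change was above 0 in 59 of 83 members (71.1%), against 51.8% of all genes tested, and its median was 0.048 against 0.0058. Among members with a mean of at least 10 FPKM the median was 0.031, against 0.0071 over all genes at that level. By complex the median was 0.054 in complex I, 0.012 in complex II, 0.056 in complex III, 0.048 in complex IV and 0.050 in complex V. The members are not independent of each other, and no test was made of these medians. Summed over the members, the libraries held 3144, 3141 and 3290 FPKM in control and 3245, 3417 and 3160 FPKM in I13 cells, with means of 3192 ± 84.9 and 3274 ± 131 FPKM (SD, n = 3 each). The sums of the groups overlapped, and control replicate 3 and I13 replicate 2 had the highest sum of their group.

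**Figure D4:**
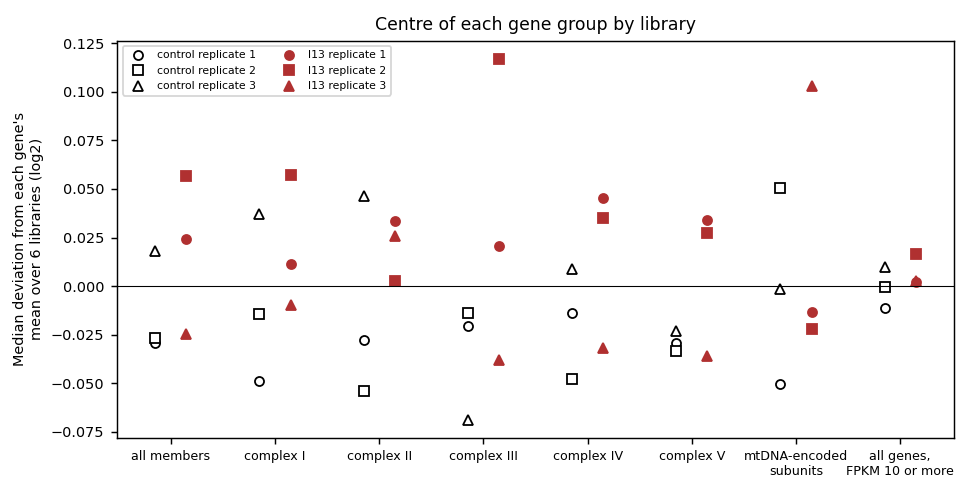
Median over the genes of a group of the deviation from each gene's mean over the 6 libraries, on the log2 scale, for control (open) and I13 (filled) libraries, with replicates 1, 2 and 3 as circles, squares and triangles. For all members the I13 libraries lie at 0.024, 0.057 and -0.024 and the control libraries at -0.029, -0.027 and 0.018, so the groups overlap.

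In complex I, 25 of 38 members had a log2 fold change above 0 and 13 below. NDUFS5 at chr1:39026318-39034636 had 212, 219 and 248 FPKM in control and 260, 268 and 245 FPKM in I13 cells. I13 replicate 3 lay under control replicate 3, so the groups overlapped, and the log2 fold change was 0.19 ± 0.071 (SE, limma, unadjusted p = 0.0313, adjusted p = 0.947). Its p passed 0.05 in limma without control replicate 3 (0.0037) and without I13 replicate 3 (0.029), but not without any of the other 4 libraries, where it was between 0.080 and 0.11. With all libraries, the limma p of NDUFS5 was 0.078 with median scaling and 0.090 without a variance trend. NDUFA6, an accessory subunit of the matrix arm at chr22:42085525-42090955, had 46.2, 45.4 and 45.0 FPKM in control and 48.1, 49.2 and 50.1 FPKM in I13 cells. All I13 libraries were higher, by a log2 fold change of 0.11 ± 0.041 (SE, limma, unadjusted p = 0.0306, adjusted p = 0.947). Its p was above 0.05 without control replicate 1, 2 or 3 or I13 replicate 3, at 0.055, 0.089, 0.061 and 0.097, and voom gave it an unadjusted p of 0.152. In limma the p of NDUFA6 was 0.064 with median scaling and 0.131 without a variance trend.

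The other members of complex I did not pass an unadjusted p of 0.05. Among all complex I members with a mean of at least 1 FPKM, NDUFA2, an accessory subunit, had the largest positive log2 fold change, at 0.29 ± 0.29 (SE), ahead of NDUFS5. NDUFA2 had 4.33, 2.51 and 5.40 FPKM in control and 3.71, 5.04 and 5.85 FPKM in I13 cells, and control replicate 2 was lowest. The largest negative ones were in NDUFC2, with -0.13 ± 0.13, and NDUFV3, with -0.10 ± 0.066 (SE). Among the core subunits named above, log2 fold changes were 0.036 in NDUFS1, 0.094 in NDUFS3, -0.089 in NDUFS7, 0.13 in NDUFS8, 0.027 in NDUFV1 and 0.13 in NDUFV2, with unadjusted p between 0.122 and 0.807. NDUFA7 had 0.740, 0.536 and 0.470 FPKM in control and 0.178, 0.509 and 0.417 FPKM in I13 cells, from 4 to 18 fragments per library, and its groups overlapped.

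Complex II, which also serves the TCA cycle and has no subunit from mitochondrial DNA, had the smallest median difference of the 5 complexes. SDHA, the flavoprotein, had 16.8, 16.6 and 18.6 FPKM in control and 16.6, 18.1 and 16.8 FPKM in I13 cells. SDHB had 36.1, 33.5 and 38.5 FPKM in control and 37.9, 36.4 and 38.01 FPKM in I13 cells. The groups overlapped in all 4 genes, and log2 fold changes were -0.016 in SDHA, 0.057 in SDHB, 0.026 in SDHC and -0.00084 in SDHD. SDHC and SDHD anchor the complex in the membrane.

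In complex III, 7 of 10 members had a log2 fold change above 0, and none passed an unadjusted p of 0.05. CYC1 had 161, 162 and 182 FPKM in control and 158, 180 and 151 FPKM in I13 cells. Control replicate 3 and I13 replicate 2 were the highest of their groups, and the log2 fold change was -0.049 ± 0.080 (SE). UQCRFS1, the Rieske iron-sulfur protein, had a log2 fold change of 0.034, and the core proteins UQCRC1 and UQCRC2 had 0.014 and -0.019. UQCRB, which helps to form the ubiquinone site, had -0.023. The largest were 0.16 ± 0.096 in UQCRQ, a small subunit, and 0.16 ± 0.16 (SE) in UQCRHL.

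In complex IV, 10 of 12 tested members had a log2 fold change above 0. COX7C, a small membrane subunit at chr5:86617904-86620962, had 92.7, 90.8 and 91.4 FPKM in control and 98.8, 101.8 and 98.8 FPKM in I13 cells. The I13 libraries were all above the control libraries, and the log2 fold change was 0.12 ± 0.039 (SE, limma, unadjusted p = 0.0156, adjusted p = 0.887), which is 1.09-fold. Its unadjusted p was 0.060 without control replicate 2 and 0.066 in voom. In limma it was 0.063 with median scaling and 0.097 without a variance trend. COX4I1, the largest nuclear subunit, had 62.5, 61.1 and 64.5 FPKM in control and 64.8, 71.0 and 66.2 FPKM in I13 cells, a log2 fold change of 0.10 ± 0.051 (SE, limma, unadjusted p = 0.081). COX6C had 32.9, 32.5 and 32.1 FPKM in control and 34.3, 33.4 and 34.1 FPKM in I13 cells, a log2 fold change of 0.062 ± 0.041 (SE, limma, unadjusted p = 0.177). The groups of these 3 of 12 tested members did not overlap, against a background of 4.88% of all genes tested without overlap and higher in I13 cells. Whether 3 of 12 exceeds that share was not tested. Only COX7C passed the unadjusted p, for which the background was 2.55% higher. COX5A and COX5B, which surround the catalytic core, had 0.021 and 0.046, and the largest negative values were -0.17 ± 0.15 in COX6A1 and -0.020 ± 0.056 (SE) in COX6B1.

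In complex V, 15 of 19 tested members had a log2 fold change above 0. ATP5F1D, the delta subunit at the foot of the rotor, at chr19:1241746-1244826, had 32.2, 32.0 and 29.7 FPKM in control and 35.2, 36.5 and 34.4 FPKM in I13 cells. Every I13 library was higher, by 1.13-fold, and the log2 fold change was 0.18 ± 0.052 (SE, limma, unadjusted p = 0.0109, adjusted p = 0.875). It was the member with the smallest unadjusted p, which stayed between 0.018 and 0.031 when any 1 library was left out, was 0.026 in voom and was 0.052 in a fit without a variance trend. The adjusted p of ATP5F1D was between 0.536 and 1.00 under all alternatives.

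ATP5ME, at chr4:672436-674338, had the largest difference of all members on few fragments. It had 0.309, 0.124 and 0.257 FPKM in control and 0.735, 0.446 and 0.418 FPKM in I13 cells, from 5, 2 and 4 fragments against 11, 7 and 6. The groups did not overlap, and the log2 fold change on the FPKM + 0.1 scale was 0.95 ± 0.35 (SE, limma, unadjusted p = 0.0303, adjusted p = 0.947). The unadjusted p was 0.085 without control replicate 2 and 0.11 without I13 replicate 1. Of its principal transcript, 49.9% lies opposite to exons of MYL5, a myosin light chain gene, for which the log2 fold change was -0.16. Whether strand was used in counting is not given in the sources used here, and without it fragments of both genes cannot be told apart.

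Apart from ATP5F1D, the core genes of the ATP synthase named here differed little. ATP5F1B had 459, 447 and 466 FPKM in control and 432, 470 and 423 FPKM in I13 cells. The groups overlapped, with I13 replicate 2 as the highest of all libraries, and the log2 fold change was -0.052 ± 0.055 (SE). It was 0.0021 in ATP5F1A, the alpha subunit, -0.047 in ATP5F1C and 0.028 in ATP5F1E, the epsilon subunit. ATP5S, a factor linked to coupling, had 0.25 ± 0.17 and ATP5MF, a membrane subunit, 0.20 ± 0.13 (SE), and neither passed an unadjusted p of 0.05.

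The other genes of the pathway gave no adjusted call either, by limma. The 13 subunits encoded in mitochondrial DNA had 8 log2 fold changes above 0 and 5 below, with a median of 0.029 and no unadjusted p under 0.05. Among the assembly factors, which help to build the complexes, the median was 0.040 for the 16 of complex I, -0.010 for the 4 of complex II, -0.022 for the 6 of complex III, 0.090 for the 21 tested of complex IV and 0.076 for the 4 of complex V. At an unadjusted p under 0.05 the background over all genes tested was 2.55% higher and 2.59% lower. Of the assembly factors 1 passed, ATPAF1, which assembles the head of the ATP synthase. It had 4.99, 4.77 and 4.33 FPKM in control and 5.83, 6.39 and 5.37 FPKM in I13 cells, a log2 fold change of 0.31 ± 0.094 (SE, limma, unadjusted p = 0.0125, adjusted p = 0.875), and its groups did not overlap. The 13 genes for ubiquinone synthesis, cytochrome c and other parts of the chain had a median of 0.081, the 14 tested transcription regulators 0.023 and the 14 TCA cycle enzymes 0.010, with no unadjusted p under 0.05. Among the regulators whose motifs were searched, the log2 fold change was 0.14 ± 0.082 in NRF1, 0.032 ± 0.089 in GABPA and -0.026 ± 0.051 (SE) in YY1.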

How the data were processed

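Messenger RNA of Kasumi-1 cells was sequenced from TruSeq Stranded mRNA libraries. The authors deposited FPKM values per Ensembl gene and library in 1 table. The submitters' processing notes name Trimmomatic, HISAT2, Cufflinks, HTSeq and the build hg38. Annotation, counting options and strand setting were not given in the sources used here.

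Values were used as deposited. With exon lengths of GENCODE 29, 25770 of 27002 genes (95.4%) gave whole fragments in all libraries within 0.01, which gave the depth. Recovered fragments summed to 100.7% to 100.8% of it, and 296 genes above 0 were not recovered, among them NDUFB9. Intervals cover 95%, and the limit of a count of 0 was set at 3 fragments and covers counting error only.

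Groups were compared by limma 3.58.1 in R 4.3.3 with a variance trend on log2(FPKM + 0.1) over the 18726 genes that averaged 0.1 FPKM or more, two-sided, with Benjamini-Hochberg adjustment over all of them. Fold changes on this scale understate those of low genes. An exact permutation test of 3 against 3 libraries cannot go below 0.1 and was not used. The script was tested on simulated data.

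The members and lists were chosen with earlier results of these data known. Named genes were members with an unadjusted p under 0.05, the 2 largest differences of each sign per complex at a mean FPKM of at least 1, core subunits, isoform pairs, the highest and lowest members, and up to 4 listed genes per list with an unadjusted p under 0.05. 1 core subunit is left out of the text and of the plots that name genes, and stays in all counts. Other genes, and the promoters shown, were chosen after their values were seen. Alternatives were other pseudocounts (0.01 and 1), other filters (none and 1 FPKM), median and quantile scaling, limma without trend or with robust variances, voom on fragments at a mean of at least 10 with library totals or upper-quartile scaling, a replicate block, a term for control replicate 3 and I13 replicate 2, both left out, each library left out, and a fold threshold of 0.58 (log2). The restriction to members with under 15% overlap was added after the data had been seen.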

Additional observations from a re-analysis of the deposited data

How the results depend on the processing

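No member passed an adjusted p of 0.05 under any alternative run. The count of members higher at an unadjusted p, 5 as reported, was 1 in limma without trend, 2 with median scaling, 3 at a minimum mean of 1 FPKM, 11 with the term for control replicate 3 and I13 replicate 2, 2 in voom, 3 in voom with upper-quartile scaling, 1 with a log2 fold change of at least 0.58, and 2 to 6 with 1 library left out. The share of all genes higher at an unadjusted p was 2.55% as reported, 2.54% in voom and 3.7% with the term. It is not given here for the other settings, so their counts cannot be read as a change in the members. With quantile normalization 1 member, ATP5F1B, was lower, at a log2 fold change of -0.12. The main fit did not pair the libraries by replicate number. Same-numbered deviations correlated at 0.32, -0.38 and -0.30, and control replicates 2 and 3 correlated best with another number. With 3 libraries per group, such correlations cannot decide whether libraries of the same number belong together. A replicate block gave 2 higher members. The median log2 fold change of all members stayed between 0.030 and 0.056 and was 0.047 for members with under 15% same-strand overlap. With 1 library left out, medians ranged from 0.016 to 0.093 for complex I, 0.018 to 0.063 for complex V, -0.0038 to 0.033 for complex II assembly, -0.054 to -0.013 for complex III assembly, 0.050 to 0.094 for complex IV assembly, -0.021 to 0.058 for other parts of the chain, -0.010 to 0.036 for regulators and -0.034 to 0.024 for the TCA cycle. Without control replicate 3 and I13 replicate 2, they were -0.011 for complex III, 0.058 for complex II assembly and -0.0033 for other parts of the chain, and complex IV assembly was at 0.043 at a minimum of 1 FPKM. Medians that changed sign under at least 1 alternative were those of complexes II and III, complex II assembly, the mitochondrially encoded subunits, other parts of the chain, regulators and the TCA cycle. The causes were not tested. Few fragments limit NDUFS7, NDUFV2, NDUFA7 and ATP5ME.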

Other observations

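The ribosomal protein genes, which encode the proteins of the cytosolic and the mitochondrial ribosome, also had small differences that were mostly upwards. Of the 82 cytosolic ribosomal protein genes tested, 75 (91.5%) had a log2 fold change above 0, against 51.8% of all genes tested. Their median was 0.071. At an unadjusted p under 0.05 in limma, 5 were higher in I13 cells, against a background of 2.55% of all genes tested. None was lower, against 2.59%. Those with the smallest p in limma were RPLP2, with 408 ± 7.10 FPKM in control and 467 ± 19.5 FPKM in I13 cells (SD, n = 3 each), RPS12, RPL27 and RPL17. RPL17 was at a far lower level, with 1.00 ± 0.085 FPKM in control and 1.58 ± 0.45 FPKM in I13 cells (SD, n = 3 each). The summed level of the cytosolic ribosomal protein genes was 30121 ± 817 FPKM in control and 31615 ± 1491 FPKM in I13 cells (SD, n = 3 each). The sums of the groups overlapped. Of the 78 mitochondrial ribosomal protein genes, which serve the translation of the subunits encoded in mitochondrial DNA, 50 were above 0, with a median of 0.027. This is 64.1%, against 51.8% of all genes tested. MRPL53, MRPS28, MRPL40 and MRPL52 had an unadjusted p under 0.05 and were higher in I13 cells, and none was lower. The backgrounds over all genes tested were 2.55% higher and 2.59% lower. No gene of either list passed an adjusted p of 0.05 in limma.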
